A study of Mus musculus with 55 samples.

Results

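Smc3 is a subunit of cohesin, the ring-shaped complex that holds DNA strands together, and the sites described here are the Smc3 sites of wild type mouse liver that carried no CTCF peak and were no longer called in Setd8-LKO livers treated with TCPOBOP. They were chosen by peak calls: a peak of the WT Smc3 list was taken when it shared no base with any peak of the Setd8-LKO Smc3 list, the WT CTCF list or the Setd8-LKO CTCF list. By this rule 4471 of 13045 WT Smc3 peaks (34.3%) were members, and their loss of Smc3 and lack of a CTCF call are therefore the choice itself and not a result. Another 727 WT Smc3 peaks had no CTCF peak but were kept in Setd8-LKO, 3025 were lost and had a CTCF peak in at least one list, and 4822 were kept and had one. These groups serve for comparison.

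Wild type untreated mice (WT) were compared with Setd8 lox/lox-AlbCre mice (Setd8-LKO) 24 h after TCPOBOP at 3 mg/kg, all of them male C57Bl6 mice 45 to 50 days old. Setd8 (gene Kmt5a) encodes the enzyme that places a single methyl group on lysine 20 of histone H4, and Alb-Cre removes its floxed exon 7 in hepatocytes but not in other liver cells. TCPOBOP activates the nuclear receptor CAR and drives hepatocytes into the cell cycle. Genotype and treatment changed together in every chromatin comparison, so their effects cannot be told apart, and the labels call the controls untreated whereas the methods mention vehicle injections. Smc3 came from 3 WT and 2 Setd8-LKO livers, CTCF from 4 and 2, H3K27ac from 3 and 3 and ATAC-seq from 3 and 5, but only 1 peak list per condition was used, so chromatin values have no replicate error. RNA-seq came from 5 WT untreated, 5 WT TCPOBOP and 4 Setd8-LKO TCPOBOP livers. The tissue was whole liver or its nuclei.

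Cohesin extrudes DNA into loops and halts where CTCF is bound in the right orientation, so most strong cohesin sites in mammalian genomes carry CTCF. A smaller class without CTCF has been described at active promoters and enhancers of tissue-specific genes, where liver factors such as HNF4A, C/EBP and FOXA bind. Acetylation of histone H3 at lysine 27 (H3K27ac) marks active promoters and enhancers, and ATAC-seq measures how open the DNA is.

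Several features of the lists bear on what "without CTCF" and "lost" mean. The WT CTCF list held 5838 peaks and the Setd8-LKO CTCF list 20905, whereas Smc3 rose from 13045 to 21615 peaks with a median fold enrichment of 13 in WT and 29.5 in Setd8-LKO. At the border of the rule, the 3 members nearest to a Setd8-LKO Smc3 peak were 3, 14 and 27 bp away from it, and the 3 excluded peaks with the smallest overlap shared 1, 5 and 6 bp. A Setd8-LKO Smc3 peak lay within 500 bp of 154 members (3.44%) and within 10000 bp of 1428 (31.9%). Promoters of 10 hepatocyte marker genes carried H3K27ac at 10 in WT and 9 in Setd8-LKO and ATAC at 6 and 3, promoters of 10 macrophage and leukocyte markers carried neither in either, and promoters of 5 cholangiocyte markers carried H3K27ac at 2 and 3 and ATAC at 1 and 0. The RNA of Kmt5a was 613, 567, 761, 563 and 715 normalized counts in WT and 1341, 1465, 1338 and 1313 in the libraries labelled Setd8-LKO, which is higher in every one of them (log2 fold change 1.08, SE 0.14, edgeR quasi-likelihood adjusted p = 0.000452). With DESeq2's size factors its log2 fold change was 0.27 and it was not called. Counts are per whole gene and do not resolve the floxed exon, so they do not check the deletion.

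The sequences of 6 members show the kinds of site in this set. They are the 200 bases around the Smc3 summit on the plus strand of GRCm38 (mm10), from the NCBI assembly, and capitals mark matches on either strand to the letters searched. The first pair had the highest Smc3 enrichment of all members, the second pair had the highest WT H3K27ac among members that also had ATAC and then lost the H3K27ac call, and the third pair had the highest WT H3K27ac among members with both marks in both conditions.
Cys1 intron, chr12:24675504-24675703: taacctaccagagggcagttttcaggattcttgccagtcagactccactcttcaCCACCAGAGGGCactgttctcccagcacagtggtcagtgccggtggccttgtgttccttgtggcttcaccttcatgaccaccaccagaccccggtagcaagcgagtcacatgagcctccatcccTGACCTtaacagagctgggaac
Prnd upstream, chr2:131939507-131939706: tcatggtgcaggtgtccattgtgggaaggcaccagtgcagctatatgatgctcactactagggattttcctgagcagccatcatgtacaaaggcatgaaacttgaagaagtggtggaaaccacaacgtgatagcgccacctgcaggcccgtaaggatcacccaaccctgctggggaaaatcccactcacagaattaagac
Gfra1 intron, chr19:58395904-58396103: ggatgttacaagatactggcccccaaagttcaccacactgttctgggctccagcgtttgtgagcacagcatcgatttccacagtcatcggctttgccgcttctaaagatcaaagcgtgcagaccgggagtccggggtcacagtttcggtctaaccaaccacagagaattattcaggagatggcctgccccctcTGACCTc
Egfr upstream, chr11:16742300-16742499: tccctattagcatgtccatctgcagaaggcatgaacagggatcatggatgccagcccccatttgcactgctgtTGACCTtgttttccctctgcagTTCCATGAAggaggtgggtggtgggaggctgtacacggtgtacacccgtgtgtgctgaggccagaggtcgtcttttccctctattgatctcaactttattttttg
Ptms upstream, chr6:124916288-124916487: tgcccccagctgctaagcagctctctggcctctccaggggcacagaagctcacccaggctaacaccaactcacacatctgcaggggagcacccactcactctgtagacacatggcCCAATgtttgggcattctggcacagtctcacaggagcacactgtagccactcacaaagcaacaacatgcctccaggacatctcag
Zbtb39 upstream, chr10:127738169-127738368: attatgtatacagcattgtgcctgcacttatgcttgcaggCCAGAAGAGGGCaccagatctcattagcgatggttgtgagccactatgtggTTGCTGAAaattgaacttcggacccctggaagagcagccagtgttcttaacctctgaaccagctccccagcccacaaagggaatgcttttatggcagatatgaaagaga

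In the Cys1 sequence the long run in capitals is the CTCF core and the short one a nuclear receptor half-site on the minus strand, although no CTCF peak of either list touched this site. The Prnd site held none of the 11 motifs searched. The Gfra1 and Egfr sites each held a nuclear receptor half-site, and the Egfr site also a STAT element. The Ptms site held a CCAAT box, and the Zbtb39 site a CTCF core and a C/EBP element. A match is a description of the letters and not of a bound factor. A missing match does not show that a motif is absent, because only exact letters were searched. Even at kept sites with a called CTCF peak the core letters were found at 22.7%.

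Members were distal sites more often than the kept sites without CTCF. Of the 4471 members, 483 (10.8%) lay within 1000 bp of a transcript start, 264 (5.9%) in exons, 1866 (41.7%) in introns and 1858 (41.6%) between genes. Of the 727 kept sites without CTCF, 438 (60.2%) lay at a transcript start. The median distance from the summit to the nearest coding start was 12.5 kb for members and 0.585 kb for kept sites without CTCF, against 9.7 kb for lost sites with a CTCF peak and 0.448 kb for kept sites with one. In place, members thus resembled the lost sites with CTCF. Their Smc3 fold enrichment in WT ranged from 4.86 to 36.3 with a median of 12.2 and quartiles of 10 and 15, and their median length was 266 bp. The median fold enrichment was 10.3 at kept sites without CTCF and 14.1 at lost sites with CTCF.

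The CTCF core letters were present at a large share of members although no member overlapped a CTCF peak. This core was searched as 12 letters that begin with CCA, hold AG in the middle and end with GGC, with 2 free letters before and after the AG, on both strands and within 100 bp of the summit. It was found at 1833 members (41%, 95% interval 39.6 to 42.5), at 2.21% of the same windows moved by 2000 bp and at 34.5% of all WT Smc3 peaks. The share was 48.2% (46.4 to 50) at lost sites with a CTCF peak, 22.7% (21.6 to 24) at kept sites with one and 15.3% (12.7 to 18.1) at kept sites without one. The letters lay at a median of 23.5 bp from the Smc3 summit, 84.6% of them within 50 bp, with 906 on the plus and 927 on the minus strand. By sequence, then, many of the members are CTCF motif sites, and "without CTCF" is used below only for the absence of a called peak. The intervals are Clopper-Pearson intervals and cover counting error only, and shares of regions were not tested against each other because each condition had a single list.

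**Figure D1:**
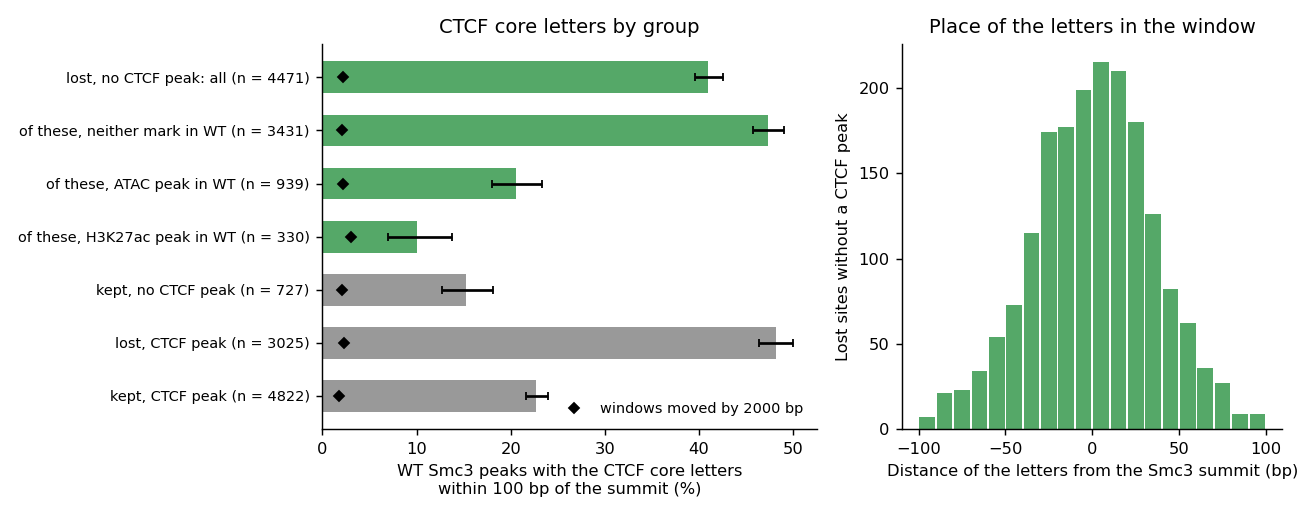
Left, percentage of WT Smc3 peaks with the 12 CTCF core letters within 100 bp of the summit, for all lost sites without a CTCF peak, for 3 classes of them by marks in WT (a site with both marks counts in both mark classes), and for the other WT Smc3 peaks; error bars are 95% Clopper-Pearson intervals and diamonds are windows moved by 2000 bp. Right, number of lost sites without a CTCF peak by the distance of the letters from the summit in bp. The share runs from 10% at sites with H3K27ac to 47.3% at sites with neither mark, and the letters gather at the summit.

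H3K27ac was rare at members, at nearly the same share in both conditions. A WT H3K27ac peak overlapped 330 members (7.38%, 6.63 to 8.19) and a Setd8-LKO H3K27ac peak overlapped 327 (7.31%, 6.57 to 8.12). Of the 330 members marked in WT, 244 (73.9%, 68.8 to 78.6) were marked in Setd8-LKO as well, and of the 4141 unmarked ones 83 (2%, 1.6 to 2.48) gained the mark. Over all WT Smc3 peaks H3K27ac was at 30% in WT and 30.8% in Setd8-LKO, and of all WT H3K27ac peaks 77.7% (77.2 to 78.2) were kept. A Smc3 site kept a mark when peaks of both lists overlapped the site itself. A WT mark peak counted as kept when any part of it overlapped a Setd8-LKO peak, so shares over all peaks are a looser measure. Kept sites without CTCF had H3K27ac at 66.7% (63.2 to 70.1) in WT and 66.9% (63.3 to 70.3) in Setd8-LKO, and 95.7% (93.5 to 97.3) of the marked ones kept it. Lost sites with CTCF had it at 4.2% and 4.3% and kept it at 74.8% (66.3 to 82.1). At promoters, 93 of 483 members (19.3%) carried WT H3K27ac, against 389 of 438 (88.8%) of the kept promoter sites without CTCF.

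Open chromatin was more frequent than H3K27ac at members, and slightly less frequent in Setd8-LKO than in WT. A WT ATAC peak overlapped 939 members (21%, 19.8 to 22.2) and a Setd8-LKO ATAC peak 794 (17.8%, 16.6 to 18.9). Of these 939 members 693 (73.8%, 70.9 to 76.6) kept an ATAC peak, and 101 of the 3532 others (2.86%, 2.34 to 3.46) gained one. The whole ATAC list was also shorter in Setd8-LKO, with 23386 peaks against 27307. By the looser measure 73% of all WT ATAC peaks were kept, nearly the share at members. Over all WT Smc3 peaks ATAC was at 30.9% in WT and 24.1% in Setd8-LKO. Kept sites without CTCF were open at 48.6% (44.9 to 52.3) in WT and 38.4% (34.8 to 42) in Setd8-LKO, and 75.6% (70.8 to 80) of these peaks were kept. Lost sites with CTCF were open at 19.5% and 15.5% and kept the peak at 69.2% (65.3 to 72.9).

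**Figure D2:**
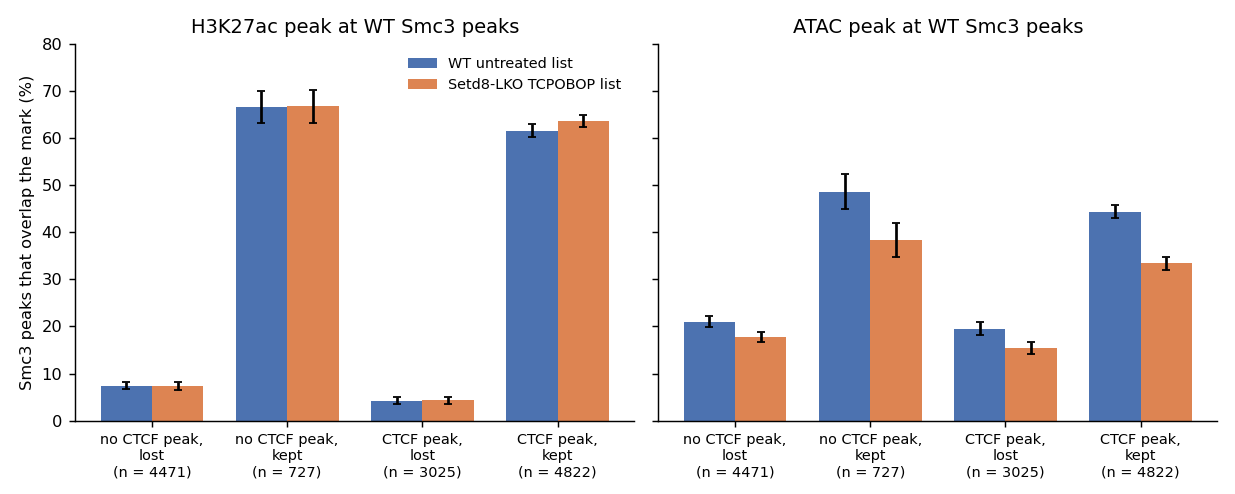
Percentage of WT Smc3 peaks that overlap an H3K27ac peak (left) or an ATAC peak (right) of the WT untreated list (blue) or the Setd8-LKO TCPOBOP list (orange), in 4 groups set by the loss of Smc3 and by CTCF peaks; error bars are 95% Clopper-Pearson intervals. Lost sites without a CTCF peak carry H3K27ac at 7.38% and 7.31% and ATAC at 21% and 17.8%, and both lost groups lie below both kept groups.

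By both marks together, 3310 members (74%) had neither H3K27ac nor ATAC in either condition. The largest marked class was open without H3K27ac in both conditions (451 members). Another 203 were open without H3K27ac in WT and had neither mark in Setd8-LKO, and 145 had both marks in both conditions. Of the 229 members with both marks in WT, 45 kept ATAC and lost H3K27ac, 27 kept H3K27ac and lost ATAC, and 12 lost both. Of the 710 that were open without H3K27ac in WT, 52 had both marks in Setd8-LKO and 4 had H3K27ac alone. In each of the 3 marked classes of WT, the most common outcome at a member was that its marks were called again in Setd8-LKO, at 63.5% of the 710, 63.3% of the 229 and 67.3% of the 101 with H3K27ac alone.

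The share of marks kept rose with their strength, at members and over all peaks, in a split that was chosen after the values were seen. At members whose WT H3K27ac fold enrichment was below 10, 59.9% (51.5 to 67.9, n = 147) kept the peak, against 56.5% of all WT H3K27ac peaks of that strength. Between 10 and 20 the shares were 83.1% (75.9 to 88.9, n = 142) and 84.9%, and from 20 upwards 92.7% (80.1 to 98.5, n = 41) and 99.7%. For ATAC, the shares kept were 60.4% at members and 63.5% over all peaks below a fold enrichment of 6, 73.2% and 71.9% between 6 and 8, and 85.5% (81.2 to 89.1) and 79.4% from 8 upwards. In the strongest class the share over all peaks lay above the interval of members for H3K27ac and below it for ATAC. These shares are unlike measures, because at members both peaks had to overlap the Smc3 site and over all peaks any overlap counted. Where both conditions had a peak, the median log2 ratio of fold enrichment, Setd8-LKO over WT, was -0.10 for H3K27ac (-0.16 to -0.06, n = 244), with medians of 12.1 in WT and 10.9 in Setd8-LKO. It was -0.10 (-0.13 to -0.06) at kept sites without CTCF, -0.00 (-0.12 to 0.11) at lost sites with CTCF and 0.03 (0.01 to 0.05) at kept sites with CTCF. Over all 21742 matched H3K27ac peaks it was 0.04, taken from each WT peak's own value and the strongest Setd8-LKO peak that overlapped it. For ATAC it was -0.10 (-0.11 to -0.08, n = 693) at members and -0.10 over all 19939 matched peaks.

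Around the summit, the 2 marks had different shapes. WT ATAC peaks covered 18% of member summits and 1.3% of the points 5000 bp upstream in the genome, and Setd8-LKO ATAC peaks covered 15.1% and 0.939%. H3K27ac peaks covered 3.42% of the summits in WT and 3.94% in Setd8-LKO, but 6.62% and 6.64% of the points 300 bp before the summit, so H3K27ac flanked the Smc3 summit. When marks within 500 bp were counted, 12.7% of members had H3K27ac in WT and 11.8% in Setd8-LKO.

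**Figure D3:**
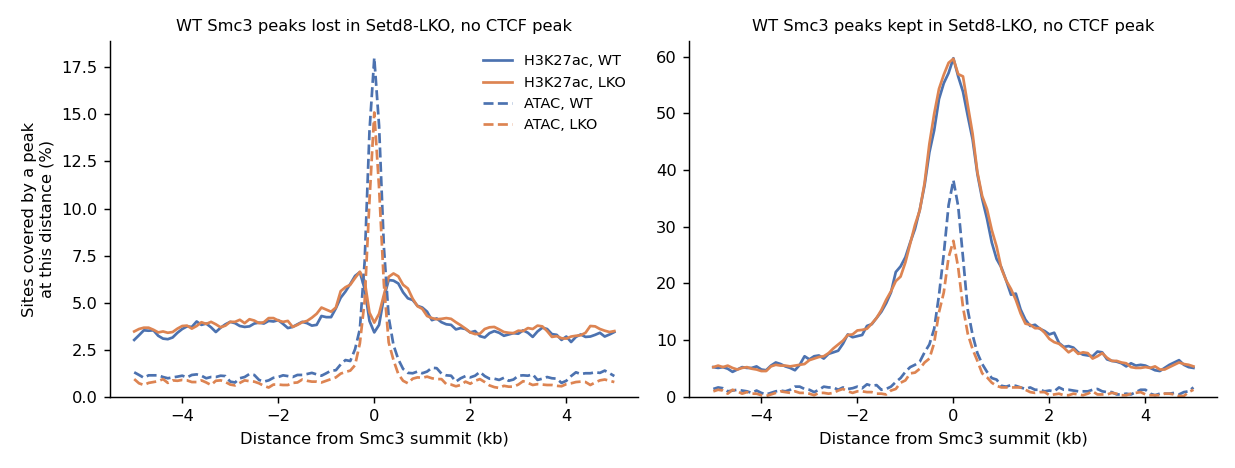
Percentage of sites covered by a peak of each list (y axis, with its own scale in each panel) against distance from the Smc3 summit in kb, for lost sites (left) and kept sites (right) without a CTCF peak. At lost sites ATAC peaks reach 18% (WT) and 15.1% (Setd8-LKO) at the summit, while H3K27ac is at 3.42% and 3.94% there and higher on either side; at kept sites H3K27ac is highest at the summit.

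Members with and without the CTCF core differed in their marks. The 1833 with the core had H3K27ac at 1.8% (1.24 to 2.52) in WT and 1.91% (1.33 to 2.65) in Setd8-LKO, and ATAC at 10.5% (9.16 to 12) and 9.22% (7.93 to 10.6). The 2638 without it had H3K27ac at 11.3% (10.1 to 12.5) and 11.1% (9.9 to 12.3), and ATAC at 28.3% (26.6 to 30) and 23.7% (22.1 to 25.4). Read the other way, the core was present at 47.3% of members with neither mark in WT, 20.6% of those with ATAC, 10% of those with H3K27ac and 6.21% of the 145 with both marks in both conditions. Members of low Smc3 enrichment had more marks: in the lowest quartile of fold enrichment (4.86 to 10) 14.3% had WT H3K27ac and 32.1% the core, and in the highest (15 to 36.3) 2.95% and 48.3%.

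Motifs of liver factors were more frequent at the marked members than at the unmarked ones. The C/EBP element TTGCNNAA was present at 13.9% (10.4 to 18.2) of members with WT H3K27ac, 13.3% (11.2 to 15.7) of those with WT ATAC and 8.22% (7.32 to 9.19) of those with neither. The nuclear receptor half-site AGGTCA was present at 20.6% (16.4 to 25.4), 22.5% (19.8 to 25.3) and 12.1% (11 to 13.2), and the FOXA core TGTTTAC at 5.76% (3.5 to 8.85), 4.47% (3.24 to 6) and 2.13% (1.67 to 2.67). The HNF4A letters CAAAGTCCA were rare, at 1.52%, 1.7% and 0.35%. In windows moved by 2000 bp from all members the shares were 7.58% for C/EBP, 13.7% for the half-site, 2.95% for FOXA and 0.268% for HNF4A. Windows moved from members with WT H3K27ac, WT ATAC and neither had C/EBP at 8.79%, 8.73% and 7.32%. They had the half-site at 15.2%, 16.2% and 13%, FOXA at 3.03%, 3.51% and 2.89%, and HNF4A at 0.303%, 0.106% and 0.291%. Members with neither mark lay slightly above their moved windows for C/EBP and HNF4A and slightly below them for the half-site and FOXA. The GC box GGGCGG of promoters was at 4.61% of members and 31.9% of kept sites without CTCF. TTCNNNGAA (STAT), TGANTCA (AP-1) and CCAAT (NFY) were at 5.01%, 5.82% and 22.1% of members against 5.95%, 5.99% and 22.9% of the moved windows. All motifs were searched on both strands within 100 bp of the summit.

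Single members show these classes. The 10 with the highest Smc3 enrichment (30.2 to 36.3) included 7 with neither mark in any list, whose nearest coding genes were Cys1, Prnd, Aif1, Map2k6, Fgfbp1, Adgrg5 and Lrrc18. The site in Cys1, which encodes the ciliary protein cystin, spans chr12:24675357-24675849 with a fold enrichment of 36.3, and that upstream of Prnd, the prion-like protein doppel, spans chr2:131939375-131939803 with 34. The member upstream of Egfr, the epidermal growth factor receptor, at chr11:16742328-16742552, had a WT H3K27ac fold enrichment of 17 and none in Setd8-LKO, while its ATAC was 6.2 and 6.12. The member in an intron of Gfra1, a receptor for GDNF, at chr19:58395863-58396173, had H3K27ac of 21.5 and then none, with ATAC of 6.68 and 4.93. These sites kept their ATAC peak without the H3K27ac call, as did those nearest to Bcl6 and Col5a3. ATAC in WT and Setd8-LKO was 5.8 and 6.95 at the Bcl6 site and 7.6 and 9.72 at the Col5a3 site. The member next in WT H3K27ac, nearest to G430095P16Rik, lost both calls, from H3K27ac of 14.1 and ATAC of 3.61 in WT. Among members with both marks in both conditions, the site upstream of Ptms had H3K27ac of 64.2 and 53.3, that upstream of Zbtb39 58.7 and 51.3, and one 24820 bp downstream of the start of Cebpa, which encodes the liver factor C/EBP alpha, 39.2 and 17. The highest Setd8-LKO H3K27ac without a WT peak was at Slc25a10 (49.7), Rreb1 (46.2), Phyh (33.1), Zpr1 (32.4) and Cyp27a1 (28.9), and 4 of these sites, all but that near Cyp27a1, were open in WT.

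Members were crowded in the bodies of a few liver genes. The coding genes nearest to most members were Cyp2e1, which oxidizes ethanol, Fabp1, the liver fatty acid binding protein, and Frmd8 with 7 each, then Alb (albumin), Clec2d, Rxra (a partner of nuclear receptors) and Selenop (a selenium carrier of plasma) with 6 each. Of the 3279 nearest genes 2643 had a single member. The 7 sites nearest to Frmd8 lay 20 to 39.6 kb beyond its nearest transcript start, and 6 of them fell in the body of the long noncoding RNA gene Neat1. Bodies with at least 3 members and at least 1 per 10 kb, a rule chosen after the values were seen, belonged to 10 genes and held 47 members: Fabp1, Cyp2e1, Clec2d, Alb, Ahsg, Selenop, Cyp2d36-ps, Osgin1, Neat1 and Slc38a3. None of these 47 members held the CTCF core (0%, upper limit 7.55%), against 41% of all members. Their median Smc3 fold enrichment was 9.82. H3K27ac overlapped 16 of them (34%) in WT and 15 (31.9%) in Setd8-LKO, but ATAC only 3 and 2. Over all members H3K27ac was at 7.38% and 7.31% and ATAC at 21% and 17.8%. These 16 are not separate marked regions, because neighbouring sites can share a peak. The 4 marked sites in Fabp1 all had the same H3K27ac values (17.8 in WT and 15.4 in Setd8-LKO), as did the 2 in Cyp2e1 (13.5 and 10.1). Along Alb (chr5:90460897-90476602) the 6 sites ran from chr5:90462724 to chr5:90474789. They had fold enrichments of 8 to 16.3 and none had either mark. Along Cyp2e1 (chr7:140763739-140774987) the sites ran from chr7:140764293 to chr7:140774841, with H3K27ac at both of those nearest to the start.

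RNA was compared through the nearest coding gene, as a description of which genes surround the sites. A gene was called lower or higher when edgeR's quasi-likelihood test gave an adjusted p below 0.05 together with a log2 fold change of 1 or more in size. The table used here lists 3900 genes that the authors had selected on the same libraries, so most listed genes pass, and bulk RNA cannot tell fewer cells of a type from less RNA per cell. Of the listed genes tested, 34.6% were lower and 50.5% higher in Setd8-LKO TCPOBOP. Of all 21951 annotated coding genes, 4.33% were called lower and 6.95% higher. Among the 3279 genes nearest to members, 264 were lower (8.05%, 7.14 to 9.04) and 323 higher (9.85%, 8.85 to 10.9). Genes nearest to lost sites with a CTCF peak were lower at 5.72% and higher at 10.9%, to kept sites without one at 8.86% and 6.38%, to kept sites with one at 6.23% and 8.72%, and to all WT H3K27ac peaks at 6.79% and 8.61%, so shares above those of all coding genes were not limited to members. All 264 and 323 had the same direction in each of the runs that the table's column names give, A and B, of which A holds 1 Setd8-LKO library, and the groups did not overlap at 262 (99.2%) and 314 (97.2%) of them. Over all listed genes the same held for direction in all 1289 lower and 1881 higher genes, with 98.4% and 96.8% not overlapping. Under DESeq2's size factors, which shift the median log2 fold change of the tested genes from 1.16 to 0.30, 287 were lower and 134 higher (31.8% higher among those called, against 55%).

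The share lower and the share higher differed with the mark at the site. Of the 262 genes nearest to a member with WT H3K27ac, 57 (21.8%, 16.9 to 27.2) were lower and 11 (4.2%, 2.11 to 7.39) higher. Where ATAC was present without H3K27ac, 82 of 601 (13.6%, 11 to 16.7) were lower and 46 (7.65%, 5.66 to 10.1) higher, and at members with neither mark in WT 180 of 2723 (6.61%, 5.71 to 7.61) and 281 (10.3%, 9.2 to 11.5). A gene can be nearest to members of more than one class. Genes near members that lost H3K27ac were lower at 21 of 78 (26.9%, 17.5 to 38.2), and near members that kept it at 37 of 191 (19.4%, 14 to 25.7), intervals that overlap. WT H3K27ac peaks away from transcript starts, anywhere in the genome, had 13.4% (12.3 to 14.5) of their nearest genes lower, and 18.8% (17.1 to 20.4) where the peak was lost. Kept Smc3 sites without CTCF that had H3K27ac had 10.4% (7.68 to 13.7). With DESeq2's size factors the shares lower were 23.3% near members with H3K27ac, 14.5% with ATAC alone and 7.38% with neither, beside 4.77% of all coding genes. The shares higher became 1.53%, 3.33% and 4.22%, beside 2.86% of all coding genes, so that at members with neither mark the order of lower and higher turned.

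**Figure D4:**
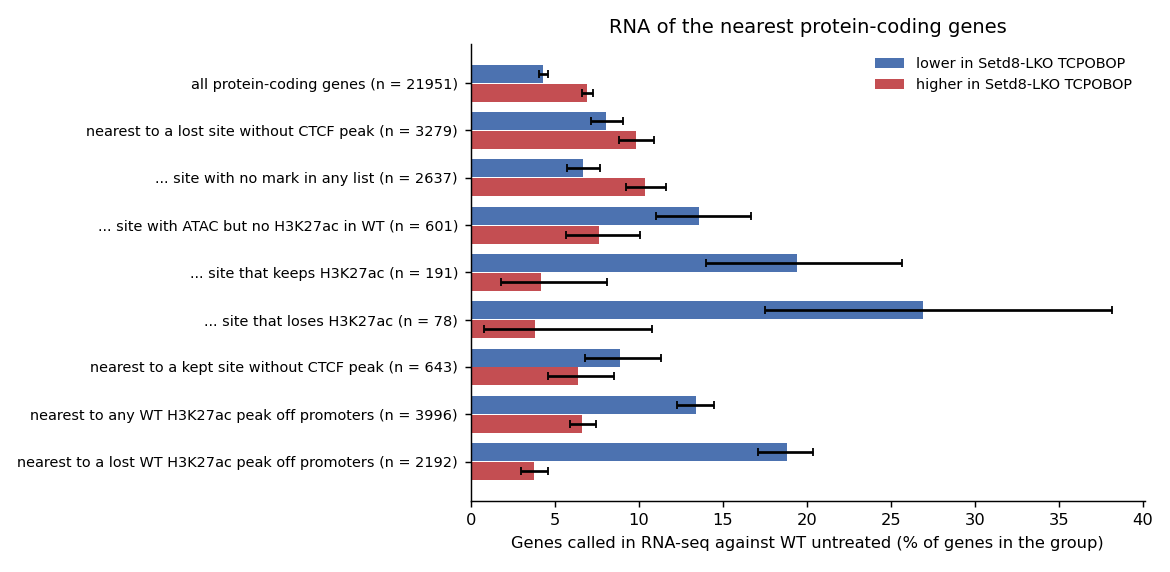
Percentage of genes called lower (blue) or higher (red) in Setd8-LKO TCPOBOP against WT untreated RNA, over all annotated genes of each group (n in the labels), with 95% Clopper-Pearson intervals. Genes nearest to lost Smc3 sites without a CTCF peak that carried H3K27ac in WT are lower at 19.4% (mark kept) and 26.9% (mark lost), against 4.33% of all coding genes, while sites with no mark in any list have 10.4% higher and 6.67% lower; with DESeq2's size factors members with neither mark in WT have 4.22% higher and 7.38% lower.

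Among liver function genes near members, those called were mostly lower. The gene lists were written with earlier results of these data known. Of 16 plasma protein genes nearest to members 7 were lower and 0 higher (Alb, Trf, Ttr, Apoh, Apoc1, Serpina1a, Serpina1b), and the other 9 are not in the table. For the liver transcription factors 4 of 14 were lower (Cebpa, Onecut1, Ppara, Bcl6) and 0 higher, for urea cycle and amino acid metabolism 9 of 11 were lower and 0 higher, for lipid metabolism 12 of 20 and 0, for glucose and glycogen metabolism 6 of 10 and 1, and for targets of growth hormone and STAT5 3 of 7 and 0. For bile acid synthesis and transport the counts were 2 of 8 lower and 1 higher. The whole lists, near a member or not, moved the same way, with 13 of 29 plasma protein genes lower and 0 higher, 4 of 29 and 0 for transcription factors, 28 of 44 and 0 for amino acid metabolism, 18 of 44 and 2 for lipid metabolism, 11 of 22 and 1 for glucose, 21 of 29 and 1 for growth hormone targets and 9 of 27 and 3 for bile acids, so nothing in these directions is particular to genes near a member. CAR targets went the other way, with 6 of 7 higher and 0 lower (26 of 34 and 0 in the whole list), and cytochromes P450 were divided, with 4 of 19 lower (Cyp2e1, Cyp2u1, Cyp2c70, Cyp3a25) and 5 higher, 4 of them in the Cyp2a and Cyp2b families (16 of 55 and 17 in the whole list). Of the cohesin complex, Pds5a and Wapl were nearest to a member and neither is in the table. Of the whole cohesin list of 15 genes, 2 are in the table and both were higher. Their summed normalized counts were 15 to 42 in WT and 267 to 446 in Setd8-LKO TCPOBOP. With DESeq2's size factors the P450 genes near members were 5 lower and 4 higher, and the called genes near members of each other list kept their direction.

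Albumin RNA was 714846, 914210, 984219, 630727 and 1230909 normalized counts in WT and 350296, 321973, 302416 and 437673 in Setd8-LKO TCPOBOP. Every Setd8-LKO library was below every WT library (log2 fold change -1.34, SE 0.30, edgeR adjusted p = 0.0198), and the call was lost when any of WT libraries 2, 3 and 5 or Setd8-LKO libraries 1 and 2 was left out (log2 fold changes of -1.34 to -1.20) and when the run was a term (-1.24). Cyp2e1 had 105925, 120250, 44438, 74302 and 49505 counts in WT and 15438, 18603, 27045 and 35255 in Setd8-LKO TCPOBOP (log2 fold change -1.71, SE 0.38, adjusted p = 0.0175). Its groups did not overlap either, but the log2 fold change was -0.67 in run A and -2.47 in run B, and the call was lost without Setd8-LKO library 1 (-1.55) or 2 (-1.61). Fabp1 went from 31814, 40753, 17859, 18050 and 21071 to 9247, 13409, 15052 and 12647 and did not pass the test (log2 fold change -1.04, SE 0.29, adjusted p = 0.0743). It was called with DESeq2's size factors (-1.86). Neat1, which forms nuclear paraspeckles, had 5556, 5377, 4704, 4442 and 3094 counts in WT and 8837, 10830, 14023 and 10540 in Setd8-LKO TCPOBOP (1.25, SE 0.21, adjusted p = 0.00275), but with DESeq2's size factors 0.47 with an adjusted p of 1. Slc38a3, a glutamine transporter with 5 members in its body, had 27621 to 34547 counts in WT and 4852 to 8638 in Setd8-LKO TCPOBOP (-2.41, SE 0.22, adjusted p = 5.28e-05).

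The next genes had members with a mark in WT, and for each of them every Setd8-LKO library lay below every WT library. Egfr had 24441, 19116, 16644, 24273 and 12036 normalized counts in WT and 1589, 900, 2580 and 1136 in Setd8-LKO TCPOBOP (log2 fold change -3.64, SE 0.37, edgeR adjusted p = 0.0001; -3.96 in run A and -3.69 in run B). Its member was the open site that lost the H3K27ac call. Cebpa had 9070, 12061, 6507, 7458 and 6747 counts and then 1438, 1257, 1711 and 2680 (-2.24, SE 0.28, adjusted p = 0.000406, with -1.36 in run A and -2.85 in run B). Of its 3 members, the pair with H3K27ac kept it at lower fold enrichment (39.2 to 17 and 21.3 to 10.7). Onecut1, another liver transcription factor, had 2146, 1815, 2312, 1039 and 801 and then 275, 174, 215 and 401 (-2.61, SE 0.37, adjusted p = 0.000963), and its member lost an ATAC peak of 5.28. Bhmt, which remethylates homocysteine with betaine, had 29268 to 56735 counts in WT and 2411 to 6415 in Setd8-LKO TCPOBOP (-3.26, SE 0.35, adjusted p = 0.000142), near a member with ATAC in both conditions (7.75 and 7.11). Serpina1b, which encodes alpha-1-antitrypsin, had 525680 to 716030 and then 104770 to 242619 (-1.82, SE 0.32, adjusted p = 0.00359), with H3K27ac kept at both of its members. Serpina1a and Serpina1b are near-identical copies, so the split of reads between them is uncertain.

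Of the 1578 genes nearest to a member with the CTCF core, 100 (6.34%, 5.19 to 7.65) were lower and 155 (9.82%, 8.4 to 11.4) higher. Of the 1993 nearest to a member without it, 202 (10.1%, 8.84 to 11.5) were lower and 192 (9.63%, 8.37 to 11) higher. Core members lay near genes with large rises, such as Cyp2b10, and near genes with large falls, of which some follow. Srebf1, the regulator of fatty acid synthesis, had 7534, 8845, 5082, 4171 and 5923 normalized counts in WT and 702, 875, 583 and 611 in Setd8-LKO TCPOBOP (log2 fold change -3.19, SE 0.26, edgeR adjusted p = 2.96e-05). Slc10a1, the bile acid importer of hepatocytes, had 5431 to 12824 and then 1065 to 2635 (-2.33, SE 0.34, adjusted p = 0.00107). Scd1, a fatty acid desaturase, had 59719 to 213883 and then 3166 to 13352 (-3.80, SE 0.52, adjusted p = 0.00071), near a core site with ATAC in both conditions (8.87 and 7.5). The groups did not overlap for any of these 3 genes. Srebf1 and Slc10a1 had an unmarked core site as their only member, as did Cyp2u1, with 602 to 1116 counts in WT and 50 to 87 in Setd8-LKO TCPOBOP.

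**Figure D5:**
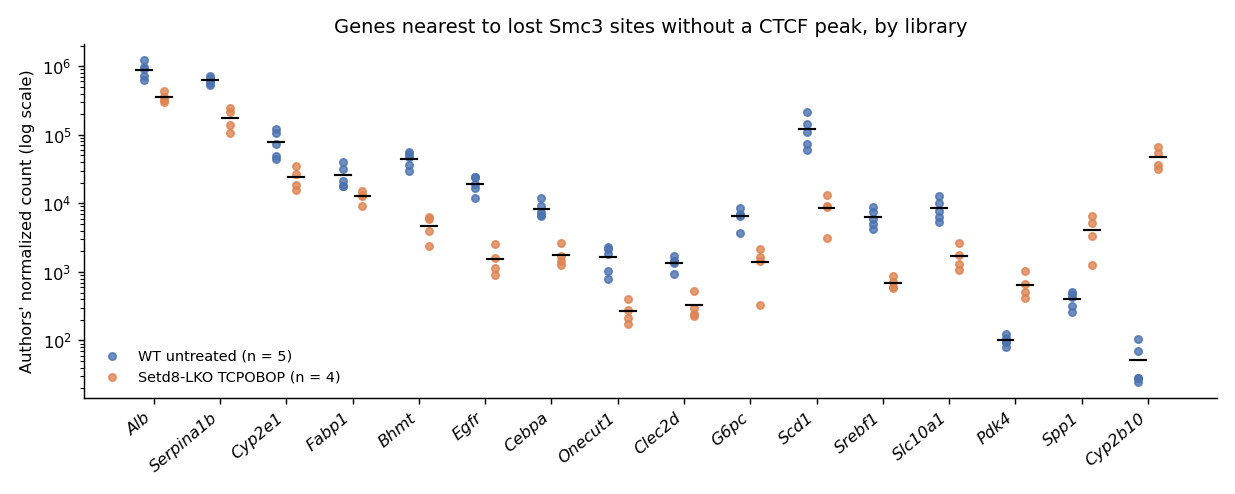
Authors' normalized counts on a log axis for 16 genes nearest to lost Smc3 sites without a CTCF peak; each point is 1 library (WT untreated, n = 5, blue; Setd8-LKO TCPOBOP, n = 4, orange) and the bar is the mean. The groups do not overlap for any gene shown. Pdk4, Spp1 and Cyp2b10 are higher in Setd8-LKO TCPOBOP and the other 13 lie lower, of which Fabp1 did not pass the test.

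The largest falls among the nearest genes were those of Dpt, Cebpe, Serpina12, Kcnk10, Ces4a, Etnppl, Nudt7, Ces3b, Acpp and Trhde, with log2 fold changes of -6.32 to -4.32. Nudt7, a peroxisomal hydrolase of coenzyme A, had 19453, 20546, 16929, 17027 and 10760 normalized counts in WT and 578, 482, 597 and 636 in Setd8-LKO TCPOBOP (-4.89, SE 0.25, edgeR adjusted p = 2.44e-06). Etnppl, a phospholyase of phosphoethanolamine, had 3027, 3546, 7269, 1296 and 9577 and then 153, 141, 182 and 128 (-5.03, SE 0.57, adjusted p = 0.000212), near a pair of members that both held the CTCF core. Serpina12 varied widely in WT (1208, 1379, 60, 806 and 78) and was at 4, 8, 12 and 21 in Setd8-LKO TCPOBOP (-5.97, SE 1.09, adjusted p = 0.00511). Of these 10 genes, none had a member with H3K27ac, and 3 (Serpina12, Ces4a and Etnppl) had one with ATAC.

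The largest rises were those of Krt20, Cyp2b10, Cyp2b9, Pkp1, Mybl1 and Cacna2d4. Cyp2b10, the classical CAR target, had 28, 25, 70, 28 and 106 normalized counts in WT and 35767, 31592, 66038 and 55164 in Setd8-LKO TCPOBOP (log2 fold change 9.84, SE 0.61, edgeR adjusted p = 6.46e-06). Its member, at -27.6 kb from the start, held the CTCF core and had an ATAC peak of 6.53 in Setd8-LKO and none in WT. Reads of the Cyp2b genes are hard to assign because the copies are alike. Krt20, a keratin of gut epithelium, had 0 counts in all 5 WT libraries and 176, 148, 12 and 145 in Setd8-LKO TCPOBOP, at least 182-fold higher from a limit of 3 counts over the WT group. Pkp1, a plaque protein of desmosomes, had 2 raw reads over WT and 803 over Setd8-LKO TCPOBOP, a ratio of 362 (99.9 to 2994). Mybl1, a Myb family transcription factor, had 3, 3, 11, 16 and 13 and then 1017, 1074, 700 and 540 (6.44, SE 0.46, adjusted p = 1.35e-05). None of the members near these 6 genes had H3K27ac in either list.

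Markers of other cell types moved with these groups. Listed macrophage and leukocyte markers (8 of 26) summed to 159 to 464 normalized counts in WT and 841 to 1319 in Setd8-LKO TCPOBOP, stellate and fibroblast markers (7 of 14) to 2455 to 3657 and 6538 to 15560, cholangiocyte markers (11 of 12) to 559 to 803 and 2379 to 9472, and the single listed endothelial marker of 14, Vwf, to 89 to 198 and 196 to 330. The listed plasma protein genes of hepatocytes (13 of 29) summed to 2263366 to 3180874 and 793264 to 1126679. Of these marker genes, 0 macrophage, 5 endothelial, 3 stellate and 4 cholangiocyte genes were nearest to a member, and those called were all higher (Vwf, Col1a1, Col1a2, Spp1, Epcam and Sox9). With DESeq2's size factors Vwf (0.17) was not called, and 2 of the 4 cholangiocyte genes were. The part of cell mixture in the values of members and their genes was not tested.

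TCPOBOP alone had its own RNA table, in which WT TCPOBOP was set against the same WT untreated libraries. It lists 719 genes, of which 16.2% of those tested were lower and 51.4% higher. Of the 3279 genes nearest to members 145 were tested, and 27 (0.823%) were lower and 72 (2.2%) higher, beside 0.405% and 1.21% of all coding genes. With DESeq2's size factors, which move the median log2 fold change of this table from 1.34 to 0.16, 52 were lower and 11 higher. With TMM scaling (median 0.08) 52 were lower and 9 higher. The direction of these counts thus depends on the scaling, and shares of all coding genes under these 2 scalings are not given here. Both comparisons share the WT controls, so only each gene's own values are set side by side. Cyp2b10 had a log2 fold change of 10.12 (SE 0.54, edgeR adjusted p = 6.57e-06) with TCPOBOP alone and 9.84 in Setd8-LKO TCPOBOP, Nudt7 -2.28 (SE 0.28, adjusted p = 0.00217) and -4.89, Bhmt -1.84 (SE 0.37, adjusted p = 0.0489) and -3.26, and Abcc4, an exporter of organic anions, 1.64 (SE 0.21, adjusted p = 0.00252) and 3.30. Scd1 (-1.33, adjusted p = 0.801) and G6pc (-1.06, adjusted p = 0.279) did not pass with TCPOBOP alone, whereas Egfr, Cebpa, Srebf1 and Alb are not in that table.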

How the data were processed

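Members and gene lists were chosen with earlier results of these data known. Reads of the ChIP, ATAC and CUT&Tag libraries were trimmed by the authors with Trimmomatic 0.39 and aligned to mm10 with HISAT2. They removed duplicates, poorly mapped and blacklisted reads, thinned ChIP-seq and CUT&Tag reads in proportion to the smallest sample, and called peaks with MACS2 2.2.7.1 or islands with SICER2. How replicates were joined into 1 list per condition is not given in the sources used here. A peak's fold enrichment and −log10 p-value are the deposited MACS2 values, and an island's score is the deposited SICER2 value. RNA reads were passed by the authors through PRINSEQ and HISAT2, and counts were made and normalized in metaseqR. The deposited tables hold raw and normalized counts of genes that the authors selected by FDR and fold change. Their columns of fold changes, p-values and FDR were not used, nor were 114 further columns of transformed values of these libraries.

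Raw counts summed over the listed genes to 11238950 to 12780869 in WT untreated and 5734065 to 8231255 in Setd8-LKO TCPOBOP libraries of the first table. These sums are not the sequencing depth, which is unknown here. edgeR 4.0.16 in R 4.3.3 (glmQLFit, glmQLFTest, filterByExpr with a minimum count of 10) used the authors' factors as scaling and Benjamini-Hochberg adjustment with 55450 annotated genes as the number of tests. On simulated counts for the 3900 listed genes of the first table, 134 of 200 changed genes were recovered, none in the wrong direction, and on the 719 of the second 115 of 200. Replicates are livers by the labels. DESeq2 1.42.0 served as an alternative.

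Peaks were matched by 1 bp of overlap with Python 3.11.15 and numpy 2.4.6, the strongest overlapping peak giving a site's value. Promoters reach 1000 bp from a GENCODE M21 transcript start, and the nearest gene is the coding gene whose transcript start is nearest to the summit within 100 kb. Sequences were read from GRCm38 with pysam 0.24.0. Intervals are 95% Clopper-Pearson intervals (scipy 1.17.1), for medians order-statistic intervals. Members were named by the highest Smc3 or H3K27ac fold enrichment in each class and by closeness to the rule's border. Genes were named when nearest to most members, when on a list, or by the 10 largest falls and 6 largest rises among called genes whose groups do not overlap. Neat1 and Slc38a3 were named after their values were seen.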

Additional observations from a re-analysis of the deposited data

Results flagged for a closer look

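Kcnk10, a potassium channel gene with an intronic member that held the CTCF core, had a normalized count of 0 in Setd8-LKO TCPOBOP library 3 and 2 in each of the other 3 libraries of this group. It was singled out because that library stood apart from the rest of its group by the whole range of the group (Dixon's ratio 1), which chance does in about 1 in 20 groups. At counts of 0 and 2 the libraries differ by less than counting error. In WT the gene had 26 to 76 counts.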

How the results depend on the processing

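The number of members was 4283 when peaks within 500 bp counted as overlapping, 4775 when at least 50% of the WT peak had to be covered, and 4729 with the Setd8-LKO Smc3 list reduced to the size of the WT list. Counting marks within 500 bp gave H3K27ac at 12.7% (WT) and 11.8% (Setd8-LKO) of members and ATAC at 23.2% and 19.7%. Members with a WT Smc3 −log10 p of at least 20 had H3K27ac at 6.23% and 6.27% and WT ATAC at 19.8%, and mark peaks with a −log10 p of at least 20 gave ATAC at 18.2% and 15.1%. The shares that kept each mark and the median ratios moved by less than their intervals under these alternatives.

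Of nearest genes, 167 were lower and 167 higher with a coding start within 10 kb, and 424 and 557 with any coding start within 50 kb. DESeq2's size factors left 134 higher. Leaving out 1 library gave 236 to 253 lower and 275 to 336 higher. For TCPOBOP alone the 99 called genes became 52 (10 kb), 156 (50 kb), 63 (DESeq2's size factors) and 61 (TMM), and 66 to 82 without 1 library. Run as a term and all gene types, both chosen after seeing the data, moved no count by over 1.5 times. Same-numbered libraries did not vary together (correlations of deviations from -0.145 to 0.0651 for Setd8-LKO TCPOBOP and -0.406 to 0.222 for WT TCPOBOP), and a replicate block gave 202 lower, 224 higher and 33 for TCPOBOP alone. The cause of these changes was not tested. Of 671 alternative values for 42 named genes, 24 lost and 4 gained the call and 0 turned direction. Vwf lost its call most often, among others without WT libraries 2, 3, 4 or 5 (0.97, 0.92, 1.06 and 1.00) and without Setd8-LKO libraries 1, 2 or 4 (0.92, 0.98 and 1.07).

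Chromatin shares rest on 1 list per condition, and a site below the caller's threshold counts as absent. Genotype, treatment and cell mixture cannot be told apart.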

Other observations

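Lamin A/C islands, the broad domains at the nuclear lamina, of WT held 112 members (2.51%, 2.07 to 3.01) and those of Setd8-LKO 78 (1.74%, 1.38 to 2.17). Islands of H4K20Me3, a mark of silent chromatin, held 26 (0.582%, 0.38 to 0.851) and 67 (1.5%, 1.16 to 1.9). Over all WT Smc3 peaks the shares were 1.91% and 1.28% for Lamin A/C and 0.521% and 1.28% for H4K20Me3, for lost sites with a CTCF peak 2.25% and 1.55%, and 0.463% and 1.45%, and for kept sites without one 1.1% and 0.688%, and 0.688% and 1.38%. The lists of these islands covered 850 Mb (Lamin A/C) and 717 Mb (H4K20Me3) in WT and 758 and 632 Mb in Setd8-LKO.

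Members were spread over the chromosomes much as other Smc3 peaks were. They made up 29.4% (chromosome 17) to 43.2% (X) of the WT Smc3 peaks of a chromosome, with 0.222 members per Mb on X and 3.01 on chromosome 19.

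Rxra (chr2:27676440-27762957), which is not in the RNA tables used here, had 6 members, spread from chr2:27671698 to chr2:27765380. The member at chr2:27671698-27671954 had H3K27ac of 14.6 in WT and 51.8 in Setd8-LKO, while the one at chr2:27679885-27680142 had 51.1 and 54. ATAC was called at 4 of the 6 in WT and 2 in Setd8-LKO.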
